A study of Mus musculus with 6 samples.

Results

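The cytosolic ribosomal proteins are the protein parts of the ribosome that translates nuclear-encoded messages. Members were chosen by gene symbol: probe sets annotated to a single symbol that starts with Rpl or Rps followed by a digit, together with Rplp0, Rplp1, Rplp2 and Rpsa, with kinases of the Rps6k group and symbols marked as pseudogenes left out. This gave 219 probe sets of 35512, and they covered 63 genes of 19938, with 38 named for the large subunit and 25 for the small subunit. By function, 54 of the 63 encode standard ribosomal proteins (33 large, 21 small), 7 are paralogues or copies (Rpl3l, Rpl7l1, Rpl10l, Rpl32l, Rpl39l, Rps4l, Rps27l), and Rps19bp1 and Rps23rg1 match the symbols without being ribosomal proteins. Livers of 3 Lmna G609G/G609G knock-in mice (replicates 1, 3 and 5, written KI1, KI3 and KI5) were compared with livers of 3 wild-type animals (replicates 2, 4 and 6, written WT2, WT4 and WT6). Lmna encodes lamins A and C, and the allele is a model of Hutchinson-Gilford progeria. All 6 were C57BL/6 females of 3 months, starved for 6 h, and each liver had 1 array of its own. A knock-in allele is carried by every tissue of the animal, not by the liver alone.

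A ribosome has a large subunit, which joins amino acids, and a small subunit, which reads the message. Each subunit holds 1 copy of nearly every ribosomal protein, with the acidic stalk proteins as the main exception, and the genes are scattered over the genome and transcribed at closely matched rates. Their mRNAs begin with a run of pyrimidines (C and T), the 5' terminal oligopyrimidine tract, through which growth signals from the kinase mTOR control their translation. Liver makes most plasma proteins and carries a large ribosome pool, which shrinks on fasting and is rebuilt on feeding.

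Sequence near the start sites of ribosomal protein genes is shown because the tract at the 5' end is the sequence feature by which their mRNAs are regulated together. RefSeq start sites on GRCm38.p6 were matched for 51 of the 63 genes, 43 of them among the 54 standard ribosomal proteins. The windows below are 30 bases long, 5' to 3' on the gene's strand, and are placed to show the run, not the start. Capitals mark the longest uninterrupted run of C and T between 20 bases before and 50 bases after the annotated start. Counted from that start, the run begins at 23 in Rps7, 24 in Rpl37a, 29 in Rps3a1, 30 in Rpl9 and 41 in Rpl10. The windows of these genes begin after the annotated start, and their runs are not at the annotated 5' end. In Rps15a, Rps28 and Rpl7l1 the run begins at -15, -20 and -19. It lies wholly before the annotated start there, outside the annotated message. In Rps6 and Rpl38 the run begins at -1 and -2. The runs of Rps28 and Rpl10 reach the limits of the search, so they can extend beyond the capitals.
Rps6 (chr4:86857345-86857374, minus strand): gtcgggCCTCTTTTTCgtgacgcctcccag
Rps7 (chr12:28635908-28635937, minus strand): tccccaCCTCTTTTCTTCCgccacccggat
Rps15a (chr7:118116139-118116168, minus strand): ggcccaCTCTCTTTCTgccatcttccctcg
Rpl37a (chr1:72711277-72711306, plus strand): attgcgTCCCTTCCTCTTCggacttgggct
Rpl9 (chr5:65391382-65391411, minus strand): cgaaagacgTTCTCTCTTTgccccatctac
Rps28 (chr17:33824559-33824588, minus strand): gaggatTCCTgggtaccgcgtgcggtctcg
Rps3a1 (chr3:86142619-86142648, minus strand): agacggcgCTCCCCgcccggctcgcgttaa
Rpl10 (chrX:74270836-74270865, plus strand): cgtgagcaggcgtgggagcgTCTCTTTTCC
Rpl38 (chr11:114668572-114668601, plus strand): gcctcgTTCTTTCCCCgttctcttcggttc
Rpl7l1 (chr17:46782652-46782681, minus strand): accccgCCCggtgaggctgcgcaagcgcag
Rps6, Rps7, Rps15a, Rpl37a, Rpl9, Rps28 and Rps3a1 are members that were called higher in knock-in liver, Rpl10 and Rpl38 are members that were not called, and the paralogue Rpl7l1 was called lower.

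A run of at least 8 pyrimidines lay in this window at 30 of the 43 standard genes (69.8%) and at 25.4% of 27025 genes with a listed start. The letters CGGAAG, searched on both strands over 250 bases before to 50 bases after the start, occurred at 31 of the 43 (72.1%) and at 17.2% of all genes. Among the 8 matched paralogues and other genes, 4 had the run and 3 had CGGAAG. The median log2 change was 0.28 at the 30 standard genes with the run and 0.40 at the 13 without, and 0.30 with CGGAAG against 0.33 at the 12 without. Among the windows printed, Rps28 and Rps3a1 were called higher without a run of 8, whereas Rpl10 and Rpl38 carry one and were not called. Annotated starts can lie some bases from the true one, and a run in the window is a description of the letters only.

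The series-wide facts that bear on these genes are few. Array medians lay between 97.0 and 104 intensity units, and the brightest probe sets read 23345 to 24988. The Lmna probe set read 290, 249 and 258 in KI1, KI3 and KI5 and 282, 267 and 362 in WT2, WT4 and WT6 (-0.17 ± 0.13, SE, limma adjusted p = 0.398), and it does not separate the splice forms that the allele alters. Changes are on the log2(intensity + 16) scale, knock-in minus wild-type, from a limma fit over 26664 probe sets, and a probe set is called when its Benjamini-Hochberg adjusted p is below 0.05. In that fit 15.0% of tested probe sets were called higher and 10.9% lower. Of 11 hepatocyte markers 1 was called higher and 1 lower, and their summed intensity ran from 136190 to 149049 in knock-in and from 139559 to 145186 in wild-type mice.

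Ribosomal protein genes were higher in knock-in liver, by small amounts. With each gene read from its brightest probe set, 26 of the 54 standard genes were called higher and 0 lower by limma, beside 13.0% of all tested genes called higher and 13.7% lower. At an unadjusted p below 0.05 the counts were 35 higher and 0 lower. The median log2 change was 0.30 (1.23-fold), and the median over all 16148 tested genes was 0.00. Single genes ran from -0.02 for Rpl34 to 1.02 for Rps3a1, and 53 of the 54 values were above 0 (52 with centred arrays, 51 with array weights, 49 without WT4 and 54 with quantile normalization). Every knock-in mouse read above every wild-type mouse at 44 of the 54 genes, beside 21.6% of all tested genes. Of the 63 members, 2 paralogues (Rpl3l and Rpl39l) lay under the filter on dim probe sets, with means of at most 35.7 in either genotype, and are not among the tested.

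**Figure D1:**
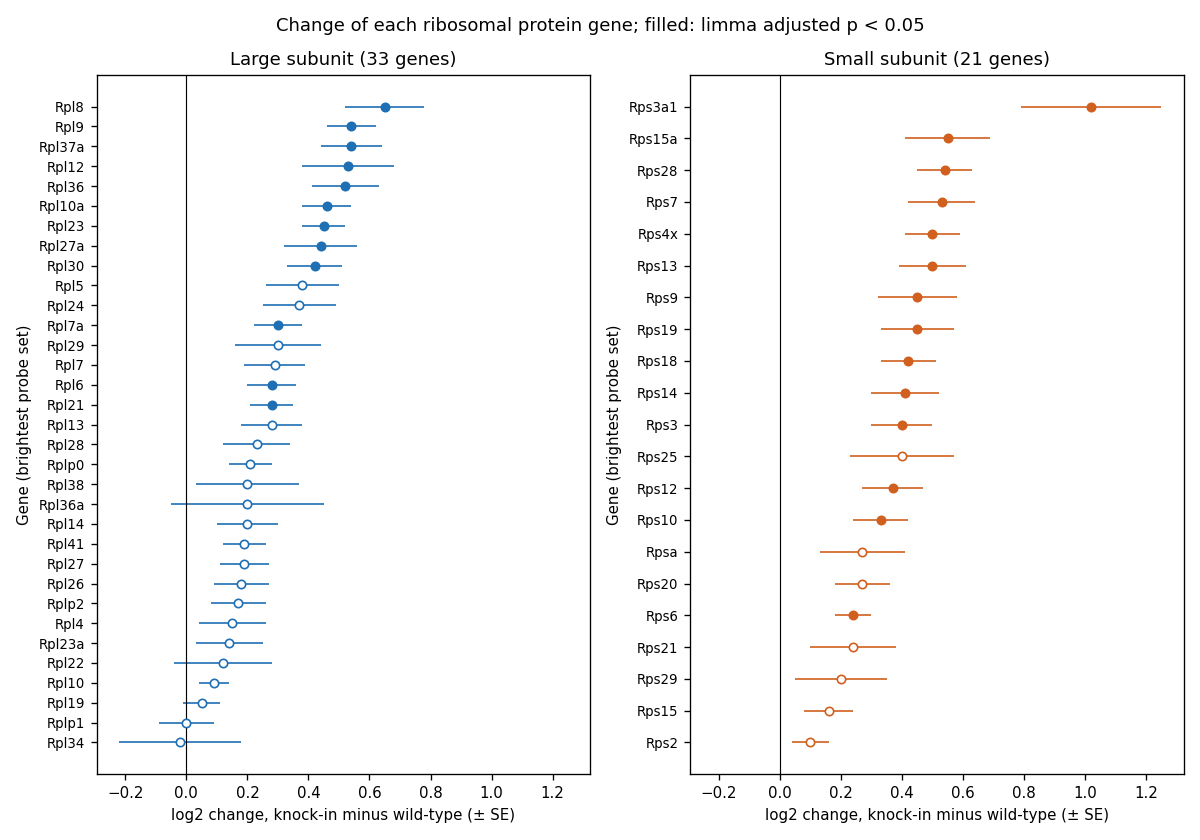
Log2 change (knock-in minus wild-type, horizontal axis) of the 33 large-subunit and 21 small-subunit genes, each from its brightest probe set, with bars for the standard error (3 mice per genotype). Filled points passed a limma adjusted p of 0.05, which 12 large-subunit and 14 small-subunit genes did, and 1 point (Rpl34, -0.02) lies below 0.

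How many members passed depended on which mice were included, while the median change moved less. Without KI1, 10 of the 54 genes were called higher, without KI5 17, without WT2 13, without WT4 15 and without WT6 13, against 26 without KI3. The share of all tested probe sets called higher also depended on the mice. It was 9.1% without KI1, 11.5% without KI5 and 16.1% without KI3. Without WT2, WT4 and WT6 it was 9.8%, 11.1% and 9.68%, beside 15.0% with no mouse left out. Over these 6 fits the median log2 change of the 54 genes stayed between 0.27 and 0.34, and 0 genes were called lower in any of them.

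Both subunits were higher, and the small subunit by more. Of 33 large-subunit genes 12 were called higher, with a median log2 change of 0.28 (1.21-fold). Of 21 small-subunit genes 14 were called higher, with a median of 0.40 (1.32-fold). Relative to each gene's wild-type mean, the median large-subunit gene stood at 0.30, 0.24 and 0.29 in KI1, KI3 and KI5 and at 0.02, -0.05 and 0.04 in WT2, WT4 and WT6. The median small-subunit gene stood at 0.43, 0.35 and 0.44 in the same knock-in mice and at 0.07, -0.14 and 0.08 in the wild-type mice. For both subunits the knock-in medians lie above all wild-type medians. The small-subunit median exceeded the large-subunit median by 0.12 to 0.14 in the 3 knock-in mice and by -0.09 to 0.04 in the wild-type mice. These are descriptions without a test, and without WT4 the medians of the changes were 0.24 for the large and 0.34 for the small subunit.

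**Figure D2:**
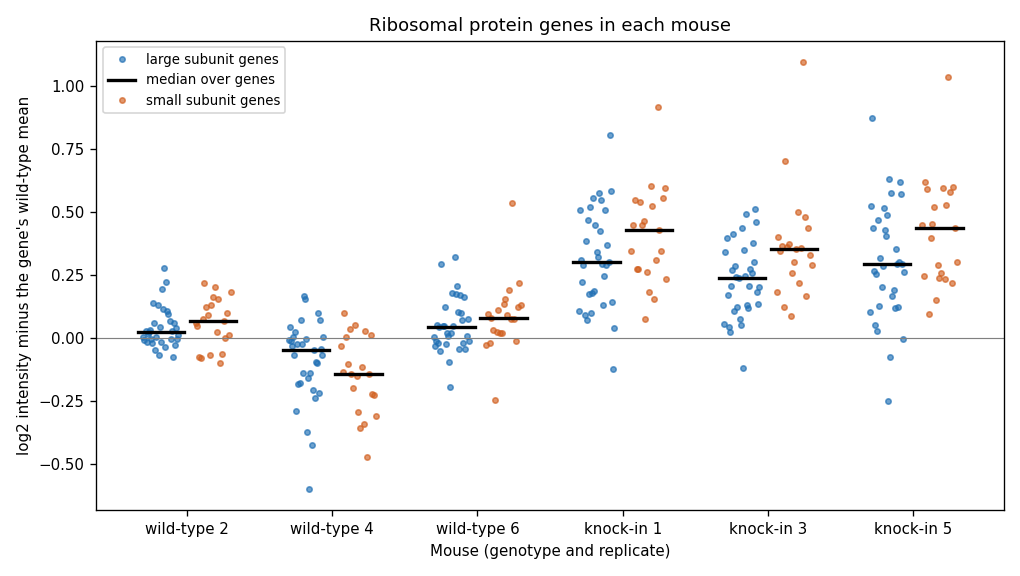
Log2 intensity of each standard ribosomal protein gene minus its wild-type mean (vertical axis) in the 6 mice, with 1 point per gene and a black line at the median for each subunit. The knock-in medians lie between 0.24 and 0.44 and the wild-type medians between -0.14 and 0.08, with WT4 the lowest.

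The several probe sets of a gene gave changes of similar size, but not always the same call. Between 1 and 14 probe sets carried the same symbol, and in 38 genes with more than 1 distinct set of values the log2 changes spanned a median of 0.08 and at most 0.21, in Rpsa. Of 39 genes with several probe sets, 13 had all of them called higher, and 8 had some called and some not (Rpl6, Rpl13, Rpl24, Rpl27a, Rps6, Rps10, Rps12 and Rpsa). Rpl13 (5 of 9 called), Rpl24 (2 of 3) and Rpsa (4 of 5) count as not called here, because their brightest probe set was not. Of the 219 probe sets, 19 had values identical to another's on all 6 arrays, so that 207 distinct rows of values remain. Probe sets of 1 gene are therefore repeat readings of shared sequence and not independent support. Counted by probe set, 111 of 217 tested members (51.2%) were called higher and 2 (0.922%) lower. Ribosomal protein genes have many processed pseudogenes with nearly the same sequence, and their part in the signal was not tested. A further 239 probe sets carried a ribosomal protein symbol beside other symbols and are not members. Of these 130 (54.4%) were called higher and 0 lower by limma, with a median of 0.31. Of 89 protein-coding RefSeq genes whose symbols match the rule, 27 had no probe set to themselves, Rpl3, Rpl11, Rps23, Rps26 and Rps27a among them.

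The largest rise among the members was that of Rps3a1, a small-subunit protein on the solvent side. It read 927, 1053 and 1011 in KI1, KI3 and KI5 and 462, 344 and 710 in WT2, WT4 and WT6. The genotypes did not overlap, and the wild-type mice were spread more widely than the knock-in mice. The log2 change was 1.02 ± 0.23 (2.02-fold; limma adjusted p = 0.0176), and the call was lost without KI1 or WT2 (adjusted p = 0.0519 to 0.0591). Rps3a1 had 1 probe set, and its change was 0.78 without WT4 and 0.79 with array weights.

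Rps28, which lies where the message leaves the small subunit, read 2627, 2588 and 2759 in knock-in and 1853, 1682 and 1942 in wild-type mice. The log2 change was 0.54 ± 0.09 (1.45-fold; limma adjusted p = 0.00498), and all 7 of its probe sets were called higher, with changes from 0.54 to 0.64. Rps14, which sits on the platform near it, read 2010, 2141 and 2506 in knock-in and 1569, 1664 and 1751 in wild-type mice (log2 change 0.41 ± 0.11), with both probe sets called. Rpsa, the laminin receptor-like protein of the same region, read 2976, 3094 and 3120 against 2871, 2035 and 2776 on its brightest probe set, which was not called (0.27 ± 0.14; limma adjusted p = 0.19). Its other 4 probe sets were called higher, with changes of 0.41 to 0.48, and on the brightest one WT4 stands far below the other wild-type mice.

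Of the 3 measured proteins that line the message channel or the decoding site, 1 was called higher. Rps2 read 9338, 9416 and 9849 in knock-in and 8460, 9186 and 8979 in wild-type mice, a log2 change of 0.10 ± 0.06 (limma adjusted p = 0.277). Rps15 had a change of 0.16 ± 0.08 (adjusted p = 0.182). Rps3, which also has a role in DNA repair, read 1776, 1838 and 2071 against 1334, 1459 and 1507, and was the one called higher (0.40 ± 0.10; adjusted p = 0.0239). On the brightest probe set of all 3, the lowest knock-in mouse lay above the highest wild-type mouse, as at 21.6% of all tested genes. On another probe set of Rps2 the genotypes overlapped (5179 in KI3 against 5212 in WT4). Rps6, the substrate of the S6 kinases downstream of mTOR, read 12288, 10868 and 11261 in knock-in and 9682, 9756 and 9601 in wild-type mice. Its log2 change was 0.24 ± 0.06 (1.18-fold; limma adjusted p = 0.0303), and 6 of its 8 probe sets were called. On arrays centred on their medians the call of Rps6 was lost (adjusted p = 0.0639), as it was without trend or without any single mouse other than KI3 (adjusted p = 0.0596 to 0.0994).

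Rps7, Rps13 and Rps15a, all of the small subunit, were also among the 10 members with the largest rise. Rps7 read 3675, 3384 and 3797 in knock-in and 2679, 2138 and 2724 in wild-type mice (log2 change 0.53 ± 0.11). Rps13 read 1010, 877 and 1063 against 649, 735 and 677 (0.50 ± 0.11). Rps15a read 392, 441 and 353 against 310, 271 and 220 (0.55 ± 0.14). None of these 3 overlapped between the genotypes, and at 21.6% of all tested genes every knock-in mouse read above every wild-type mouse. Both measured proteins of the beak, Rps10 and Rps12, were called higher, with log2 changes of 0.33 ± 0.09 and 0.37 ± 0.10. Both calls were lost with centred arrays, without KI1 and without any single wild-type mouse, that of Rps10 also without KI5 and that of Rps12 also without KI3 (limma adjusted p = 0.0616 to 0.108 for Rps10 and 0.0532 to 0.134 for Rps12).

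In the large subunit the largest rise was that of Rpl8, a protein near the peptidyl transferase centre, read from its 1 probe set. It read 3159, 2571 and 2770 in knock-in and 1871, 1541 and 2013 in wild-type mice, which is 1.57-fold (log2 0.65 ± 0.13; limma adjusted p = 0.0101). Rpl9, which lies by the site where elongation factors bind, read 5485, 5026 and 5431 against 3580, 3842 and 3544. All 8 of its probe sets were called, with changes of 0.54 to 0.63 (limma adjusted p = 0.00286 on the brightest). Rpl37a, a zinc-binding protein, read 4255, 4101 and 4341 against 2839, 2640 and 3283 (0.54 ± 0.10). Rpl36 read 3459, 2955 and 3603 against 2508, 2075 and 2391 (0.52 ± 0.11), with all 9 probe sets called. Rpl10a, the protein of the L1 stalk, had 4 of 4 probe sets called and a change of 0.46 ± 0.08. For each of these 5 genes the genotypes did not overlap, beside the 21.6% of all tested genes with every knock-in mouse above every wild-type mouse. Rpl10, which completes the large subunit late in its assembly, had 0 of 6 probe sets called and a change of 0.09 ± 0.05.

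The acidic stalk, which recruits the translation factors, did not follow as a block. Rpl12 forms the base of the stalk and read 118, 126 and 182 in knock-in and 94, 91 and 91 in wild-type mice, a log2 change of 0.53 ± 0.15 (limma adjusted p = 0.0348). KI5 was the highest, and all 3 knock-in mice lay above the wild-type mice. Rplp0, the anchor of the stalk, read 6395, 6568 and 7089 against 5941, 5615 and 5810 and was not called (0.21 ± 0.07; adjusted p = 0.0688). Rplp1 read 6647, 7966 and 7231 against 7217, 6907 and 7639, with full overlap and a change of 0.00 ± 0.09 (95% interval -0.20 to 0.20). Rplp2 read 157, 178 and 186 against 154, 153 and 151 (0.17 ± 0.09; adjusted p = 0.226). Rpl12 and Rplp2 had 1 probe set each and read far dimmer than Rplp0 and Rplp1, and the part of this in the contrast within the stalk was not tested.

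The measured proteins around the exit tunnel, through which the new chain leaves, had low changes in the data. Of 9 listed, 5 were measured (Rpl4, Rpl19, Rpl22, Rpl23a and Rpl26). Of these 5, 0 were called by limma and 0 had an unadjusted p below 0.05. Over all tested genes 13.0% were called higher, and a count of 0 of 5 lies near that share. The changes ran from 0.05 to 0.18 with a median of 0.14. Rpl19 and Rpl23a had 7 and 13 probe sets (7 and 11 with distinct values), which are repeat readings of shared sequence, and none were called. Rpl5, which with Rpl11 carries the 5S RNA and binds Mdm2, the inhibitor of p53, read 4565, 3878 and 4102 in knock-in and 3359, 2718 and 3618 in wild-type mice. The mice did not overlap, and the change of 0.38 ± 0.12 missed the threshold (limma adjusted p = 0.0603). It passed when 1 probe set stood for each gene or when the filter was raised to the 50th percentile (adjusted p = 0.0451 to 0.0499). Without WT4, the lowest wild-type mouse here, the change of Rpl5 was 0.26 (limma adjusted p = 0.122).

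**Figure D3:**
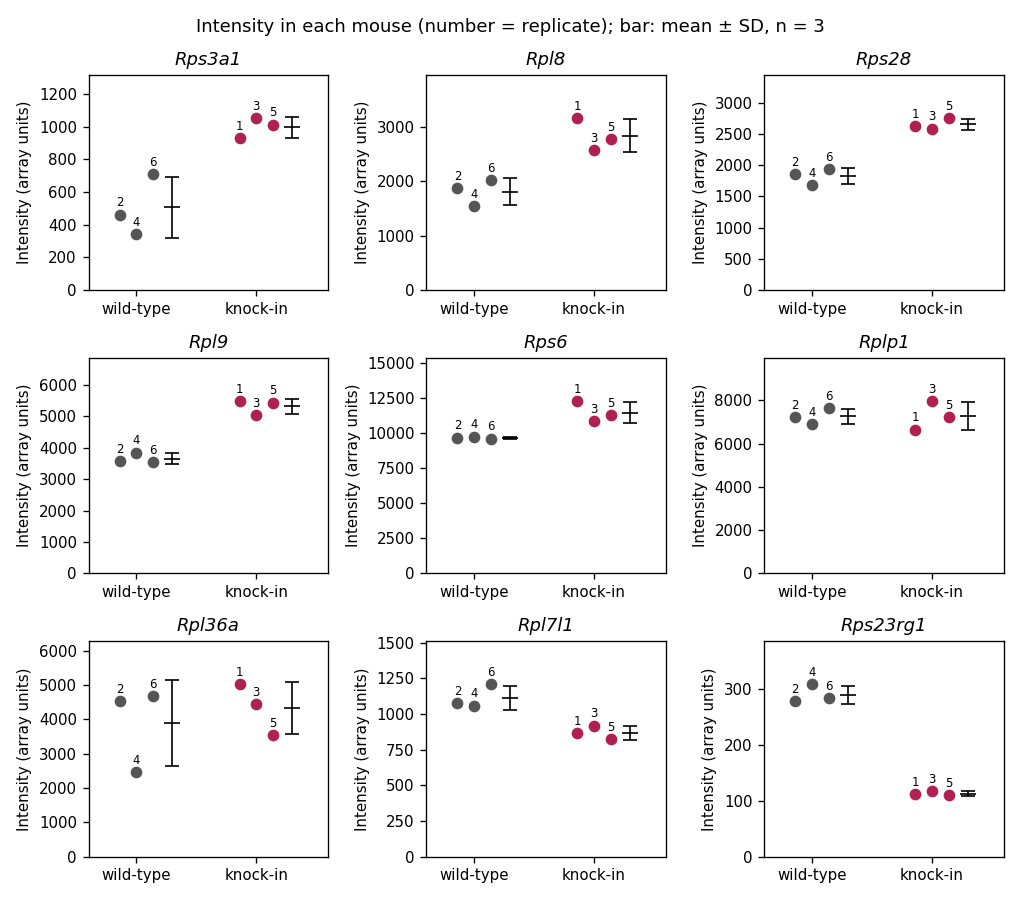
Intensity (vertical axis, from 0) of 9 members in each wild-type and knock-in mouse, with the replicate number at each point and a bar for the mean ± SD (n = 3). Rps3a1, Rpl8, Rps28, Rpl9 and Rps6 are higher in all 3 knock-in mice, Rplp1 and Rpl36a overlap, and Rpl7l1 and Rps23rg1 are lower in all 3 knock-in mice.

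The paralogues and the symbol-matched genes outside the ribosome moved in both directions. Rps23rg1, a retrogene derived from Rps23 that encodes a membrane protein, read 111, 117 and 110 in knock-in and 278, 308 and 283 in wild-type mice. It was 2.37-fold lower (log2 change -1.25 ± 0.08; limma adjusted p = 0.00026). Rpl7l1, a nucleolar relative of Rpl7, read 866, 917 and 821 against 1074, 1057 and 1208, a log2 change of -0.35 ± 0.10 (limma adjusted p = 0.0363). Rpl7 itself changed by 0.29 ± 0.10 and was not called (adjusted p = 0.0835). Each of the mice other than KI3, when left out, ended the call of Rpl7l1 (adjusted p = 0.055 to 0.143).

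Rps27l, a paralogue of Rps27 that p53 induces, read 2884, 3227 and 2644 in knock-in and 3463, 3175 and 3486 in wild-type mice. The genotypes overlapped and the change of -0.21 ± 0.10 was not called (limma adjusted p = 0.159). Rps4l was at 0.29 ± 0.09 (adjusted p = 0.0576) on its brighter and 0.15 ± 0.14 on its other probe set. Rpl32l was called higher (0.32 ± 0.10; adjusted p = 0.046), a call lost in 8 of 15 alternative fits, each fit without a single mouse other than KI3 among them (0.0547 to 0.145). Rpl10l, a testis-enriched relative of Rpl10, was not called (-0.08 ± 0.08). Rps19bp1, a regulator of the deacetylase Sirt1 that binds Rps19, read 336 to 356 in knock-in and 334 to 359 in wild-type mice.

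Of the 15 called members given by name under the naming rule, 5 kept their call in all 15 alternative fits (Rpl8, Rpl9, Rpl37a, Rps28 and Rps23rg1), and 10 lost it in at least 1. Besides those given above, Rps3 lost its call without any single mouse other than KI3 (limma adjusted p = 0.052 to 0.0906), and Rps14 without KI5 or any wild-type mouse (0.0622 to 0.101). Rps15a lost it without KI1 or KI3 or WT4 or WT6 (0.0611 to 0.0898), and Rps13 without KI1 or WT2 or WT6 (0.0539 to 0.0588). Rps7 and Rpl36 lost it without KI1 (0.055 and 0.0597). Rpl12 lost it without any single wild-type mouse, with no filter and with quantile normalization (0.0513 to 0.0921).

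The wild-type mice differed among themselves in these genes. WT4 was the lowest wild-type mouse at 38 of the 54 standard genes (70.4%), beside 35.1% of all tested genes, and KI3 was the lowest knock-in mouse at 30 (55.6%), beside 28.7%. Rpl36a read 4536, 2457 and 4675 in WT2, WT4 and WT6, so that WT4 was 1.84-fold below the next, and 5021, 4435 and 3538 in the knock-in mice. Rpl38, which is needed for translation of certain Hox messages, read 3682, 2345 and 3642 in the wild-type and 3873, 3461 and 3541 in the knock-in mice. Rpl34, Rps25, Rps29, Rpsa, Rps21 and Rps3a1 completed the 8 genes at which WT4 lay at least 0.4 log2 units below the other wild-type mice. Without WT4, Rpl36a stood at -0.10, Rpl38 at -0.02 and Rpl34 at -0.20, and 49 of the 54 changes were above 0. Rpl36a, Rpl38 and Rpl34 were chosen for mention after their values were seen. Whether a technical or a biological difference sets this mouse apart was not tested.

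Brightness moved with the size of the change in part. Of 12 standard genes with a mean intensity of 5000 or more, 3 were called higher, with a median log2 change of 0.20, beside 25% of the other genes of that brightness, so this count equals the background. From 1000 to below 5000, 17 of 32 were called with a median of 0.37, beside 21.1% of other genes. Below 1000, 6 of 10 were called with a median of 0.44, beside 11.5% of other genes. In the middle range the small subunit had a median of 0.41 (12 genes) and the large subunit 0.30 (20 genes). At 5000 or more both had 0.20. Below 1000 the small subunit had 0.50 (5 genes) and the large subunit 0.20 (5 genes), so the rise towards dimmer genes was not seen throughout the large subunit. Across the 54 genes Spearman's rho between mean intensity and change was -0.22 (-0.04 over large-subunit and -0.45 over small-subunit genes). All these points share the same 6 arrays. Genes outside the list at 5000 or more had a median of -0.06. The part of brightness in the difference between the subunits was not tested.

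**Figure D4:**
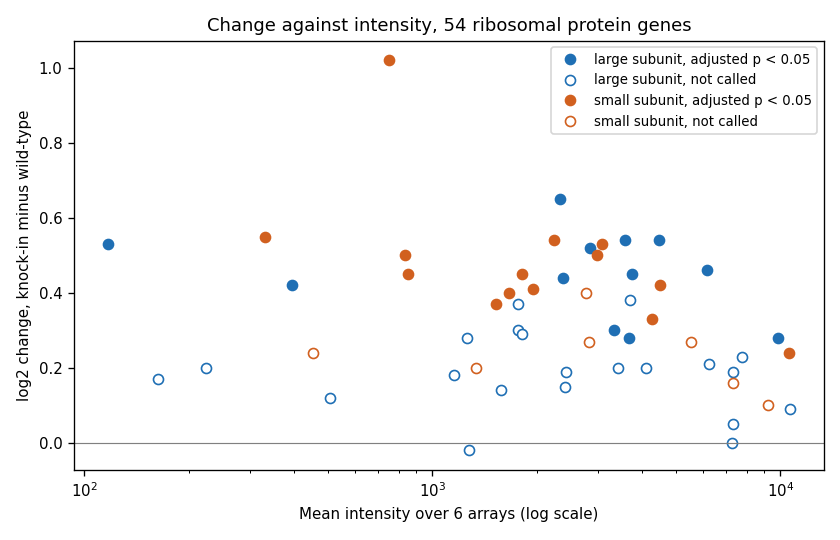
Log2 change (vertical axis) against mean intensity over 6 arrays (horizontal axis, log scale) for the 54 standard ribosomal protein genes, with filled points for a limma adjusted p below 0.05. The 12 genes at 5000 or more have a median change of 0.20, and the 32 genes from 1000 to below 5000 have 0.37.

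Other parts of the ribosome and of the translation machinery were read in the same fit. Fau, which encodes the small-subunit protein S30 fused to a ubiquitin-like domain, read 5991, 5712 and 6467 in knock-in and 4535, 4549 and 4899 in wild-type mice and was called higher (log2 change 0.38 ± 0.08; limma adjusted p = 0.0117). It was the 1 tested gene of 3 listed there. Of 5 genes of nascent chain and ribosome-associated factors, 2 were called higher and 0 lower (3 and 0 at an unadjusted p below 0.05). Their median was 0.15, and over all tested genes 13.0% were called higher and 13.7% lower. The 2 called were Btf3 (0.32 ± 0.08) and Npm1 (0.54 ± 0.16), and Npm1 is also counted among the genes of ribosome biogenesis. Both calls were lost without KI1, KI5, WT2 or WT6, and that of Npm1 also without WT4, with centred arrays and with no filter (limma adjusted p = 0.0577 to 0.0748 and 0.0548 to 0.122).

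Of 79 genes of ribosome biogenesis, which make and export the subunits, 45 were called higher and 0 lower (57 and 1 at an unadjusted p below 0.05). Their median log2 change was 0.43, and over all tested genes 13.0% were called higher and 13.7% lower. Nmd3, the export adaptor of the large subunit, read 1519, 1589 and 1641 in knock-in and 769, 717 and 783 in wild-type mice (1.05 ± 0.09; limma adjusted p = 0.000561). Nop58, a core protein of box C/D particles, changed by 1.29 ± 0.12, and Wdr43, a small-subunit processome protein, by 0.99 ± 0.11. The genotypes are set well apart at Nmd3, where the lowest knock-in mouse lies far above the highest wild-type mouse.

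Of 34 translation factors, 12 were called higher and 2 lower, with a median of 0.18, beside 13.0% of all tested genes called higher and 13.7% lower. Eif1a (1.74 ± 0.14), Eif5 (0.55 ± 0.10) and the release factor gene Etf1 (0.65 ± 0.09) rose. The initiation factor genes Eif3l and Eif4b fell, by 0.68 and 0.55 on the log2 scale. Eif4b read 2215, 2527 and 2002 in knock-in and 3303, 2992 and 3548 in wild-type mice.

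Mitochondrial ribosomal proteins, which serve the separate ribosome inside mitochondria, went the other way on balance, mainly in their large subunit. Of 76 tested, 3 were called higher and 20 lower, with a median of -0.20, beside 13.0% of all tested genes called higher and 13.7% lower. The mitochondrial large subunit had 16 of 48 called lower with a median of -0.25, and the small subunit 4 of 28 with a median of -0.05. This small-subunit count is near the share of all tested genes. In each knock-in mouse the median mitochondrial gene lay at -0.21 to -0.16, below the wild-type range of -0.09 to 0.06, whereas the cytosolic median lay at 0.27 to 0.33 against -0.10 to 0.05. The difference between the lists was not tested.

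**Figure D5:**
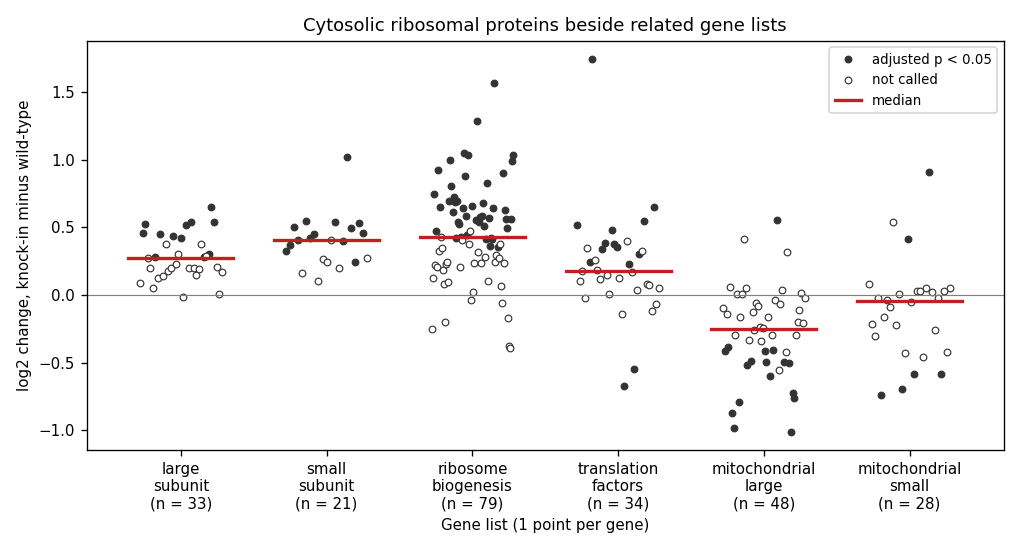
Log2 change (knock-in minus wild-type, vertical axis) of each tested gene in 6 lists, with filled points for a limma adjusted p below 0.05 and a red line at each list's median. The medians are 0.28 and 0.40 for the cytosolic subunits, 0.43 for ribosome biogenesis, 0.18 for translation factors, and -0.25 and -0.05 for the mitochondrial subunits.

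Regulators of ribosomal protein messages changed in both directions. Of 23 genes of the mTOR pathway and of tract-binding proteins, 7 were called higher and 4 lower, with a median of -0.07. Over all tested genes 13.0% were called higher and 13.7% lower, and the count called lower here lies near that share. The mTOR inhibitors Sesn1 (2.91 ± 0.17), Sesn2 (1.94 ± 0.24) and Ddit4 (3.92 ± 0.29) rose. Mtor itself read 559, 525 and 675 in knock-in and 935, 1025 and 1062 in wild-type mice, a log2 change of -0.77 ± 0.12 (limma adjusted p = 0.00417). Deptor, another inhibitor, and Pdcd4, which restrains initiation, fell by 0.60 and 0.56 on the log2 scale. Sesn3, the third sestrin, was called lower (-0.39 ± 0.12; limma adjusted p = 0.0467), in contrast to Sesn1 and Sesn2, and was named after its value was seen. The calls of Sesn3 and Pdcd4 were each lost without KI1, KI3, WT2 or WT4 and with no filter, that of Sesn3 also without KI5 and that of Pdcd4 also with array weights or quantile normalization (adjusted p = 0.0525 to 0.15 and 0.0509 to 0.142). Larp1, which binds the pyrimidine tract, was not called (-0.17 ± 0.13; adjusted p = 0.402) and was named after its value was seen.

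Among 7 genes of transcription factors that act at ribosomal protein promoters, 2 were called higher and 0 lower by limma. These counts stand beside 13.0% and 13.7% of all tested genes. At an unadjusted p below 0.05 the counts were 3 and 0, and the median change was 0.26. Myc, a driver of ribosome production, read 1877, 1536 and 2963 in knock-in and 188, 247 and 428 in wild-type mice, a log2 change of 2.84 ± 0.33 (limma adjusted p = 0.00148). Tbp, the TATA-binding protein, changed by 0.65 ± 0.16, a call lost without any single mouse other than KI3 (limma adjusted p = 0.0504 to 0.0868).

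Markers of other liver cell types were read beside these genes, since cells differ in ribosome content. Over all tested genes 13.0% were called higher and 13.7% lower. The counts of Kupffer cell, lymphocyte and stellate markers called lower lie near that share. At an unadjusted limma p below 0.05, 6 of 14, 3 of 8 and 3 of 10 of them were lower, and 1, 0 and 1 higher. Over all 16148 tested genes these counts were 3195 lower and 2948 higher. The median log2 changes were -0.30 for Kupffer cell, -0.13 for lymphocyte and -0.16 for stellate markers. They were -0.39 for endothelial, 0.24 for neutrophil, 0.02 for erythroid and -0.01 for cholangiocyte markers. Of 14 Kupffer cell and macrophage markers 2 were called lower, and their summed intensity ran from 4317 to 7638 in knock-in and from 6494 to 11264 in wild-type mice. Of 8 tested lymphocyte markers 1 was called lower (summed intensity of the 13 measured 795 to 886 against 902 to 1007), with Cd3d, Cd79a, Ms4a1, Ncr1 and Klrb1c under the filter. Of 7 tested neutrophil markers 3 were called higher (11 measured, 709 to 715 against 526 to 596), with Ltf, Ngp, Cxcr2 and Mmp8 under the filter. Of 10 endothelial markers 1 was called higher and 5 lower (6342 to 8270 against 7708 to 8351), and of 10 stellate markers 1 higher and 1 lower (8187 to 9662 against 7337 to 8313). Of 5 measured erythroid markers 1 was called lower (548 to 690 against 723 to 819), and of 6 cholangiocyte markers 0 were called (538 to 569 against 523 to 570, with 0 also at an unadjusted p below 0.05 by limma). In whole liver, a different number of cells of a type and a different amount of RNA per cell cannot be told apart, and the part of cell makeup in the ribosomal protein values was not tested.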

How the data were processed

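Liver RNA of 6 mice was read on 1-colour arrays. The deposited values are linear, whole-number intensity readings, 1 for each probe set in each liver. The authors' summarisation, background correction and normalization are not given in the sources used. Array medians differed by 0.087 on the log2 scale, so values were not rescaled. Arrays carry no read depth, and 3 mice per genotype limit the precision. Symbols came from GEO's platform annotation, and all 63 member symbols matched RefSeq (GRCm38.p6) by gene identifier with 0 differing. Probe set coordinates were not used here.

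Probe sets at or above the 25th percentile of the mean were tested as log2(intensity + 16) with limma 3.58.1 in R 4.3.3 (lmFit, eBayes with trend, Benjamini-Hochberg over all 26664 probe sets). The pseudocount understates changes of dim genes. A gene was read from the probe set with the highest mean. Errors of log2 changes are SE and of intensities SD. The code was tested on simulated data. The labels name no batch, and whether mice were littermates is not stated.

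The members, gene lists and tests were chosen with earlier results of these data known. Named genes are the 10 members with the largest rise and up to 10 with the largest fall among called genes, members of fixed role lists, and up to 3 per direction by smallest p from each related list (none is given from the mitochondrial list). The largest changes were ranked by gene, on its brightest probe set. Brightness classes, the start-site searches and any other gene named were chosen after values were seen. Figures were drawn with matplotlib 3.10.9.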

Additional observations from a re-analysis of the deposited data

How the results depend on the processing

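The fit was repeated with array weights, without trend, with 1 probe set per gene, after centring or quantile normalization, with pseudocounts of 64 or 1, unfiltered or filtered at the 50th percentile, and without each mouse in turn. Of 6904 probe sets called in all, 4237 to 7750 were called with a mouse left out. Ribosomal protein probe sets called higher numbered 111, and 43 to 108 with a mouse left out, 74 with centred arrays, 129 with array weights, and 30 of 61 with 1 probe set per gene, where fewer are tested. Those called lower numbered 2, and 1 to 2 with a mouse left out. The median change over member probe sets was 0.28 for the large subunit (0.27 to 0.32 with a mouse left out) and 0.37 for the small subunit (0.30 to 0.42). Of 54 standard genes, 20 were called higher with centred arrays and 28 with quantile normalization. The share of all tested probe sets called higher was 15.0% in the main fit, 12.8% with centred arrays and 13.7% with quantile normalization. It was 18.4% with array weights, 15.6% with 1 probe set per gene and 9.1% to 16.1% with a mouse left out. For the 26 tested of 28 named members, 347 of 389 alternative values kept their direction and side of the threshold, 37 values of 10 genes lost the call, 5 values of 2 genes (Rpl5 and Rps4l) gained it, and 0 reversed. Of 24 other called genes given in the text, 16 kept the call in every one of these fits and 8 lost it in at least 1. The median change of all probe sets was 0.028, and -0.012 with centred arrays. No paired analysis was possible because the genotypes share no replicate number.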
